A study of Mus musculus with 12 samples.

Results

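The main effect of cocaine was examined over all 12 of the 12 small RNA libraries of the study. The 6 libraries from mice given cocaine (CS replicates 8, 9 and 10, and MC replicates 16, 17 and 20) were compared with the 6 from mice without it (SS replicates 12, 13 and 14, and MS replicates 3, 4 and 23), and methionine was the second factor of the model. The members were chosen by treatment alone, and no measured value entered the choice. RNA of 18 to 30 nt was recovered from the prefrontal cortex (PFC) of adult male C57BL/6 mice, dissected 2 h after the test of a conditioned place preference (CPP) procedure, in which a mouse learns to associate 1 chamber with an injection, and was read in single-end reads of 50 nt. SS mice received saline only. CS mice received cocaine and saline, MS mice received l-methionine and saline, and MC mice received l-methionine and cocaine. Per the labels, l-methionine, a precursor of the methyl donor of the cell, was injected under the skin at 1 g/kg over 10 days, although the sources used here do not state the same dose throughout. All mice, those without cocaine included, were injected and went through the CPP procedure. Each library was made from RNA pooled from a pair of animals, so a p-value measures the spread between such pools. In whole tissue, fewer cells of a type and less RNA per cell cannot be told apart.

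MicroRNAs (miRNAs) are short RNAs cut from hairpin precursors, and they guide Argonaute proteins to mRNAs mainly through the seed, bases 2 to 8 of the mature strand, after which the mRNA is translated less or decays. In the brain, miR-124 and miR-9 accumulate in neurons, and the precursor of miR-132 and miR-212 is transcribed in response to neuronal activity. PIWI-interacting RNAs (piRNAs) are best known for silencing transposons in the germline, and small nucleolar RNAs (snoRNAs) guide the modification of ribosomal RNA (rRNA).

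The sequences below belong to miRNAs described in the text that follows, none of which passed the test for an effect of cocaine. The first 4 were among the miRNAs with the smallest p-values and are shown because no 2 of them have a seed in common. Among the 636 tested miRNAs with a sequence in the reference, no other had the seed of any of these 4. The last 2 are products of neighbouring genes and are shown because they have the same seed. Capitals mark the seed, and each sequence is written 5′ to 3′ as RefSeq gives it on GRCm38.p6.
miR-329-5p: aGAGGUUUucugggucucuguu
miR-342-3p: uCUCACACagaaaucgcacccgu
miR-188-5p: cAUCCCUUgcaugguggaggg
miR-674-3p: cACAGCUCccaucucagaacaa
miR-132-3p: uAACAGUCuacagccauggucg
miR-212-3p: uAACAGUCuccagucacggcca
These mature strands lie within the genes Mir329 (chr12:109713503-109713524, + strand), Mir342 (chr12:108658680-108658702, + strand), Mir188 (chrX:7248031-7248051, - strand), Mir674 (chr2:117185186-117185207, + strand), Mir132 (chr11:75173723-75173744, + strand) and Mir212 (chr11:75173443-75173464, + strand). The sequences of miR-188-5p and miR-674-3p, which have few counts, were added after their values were seen.

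Before the comparison, the libraries were examined for differences that the groups do not explain. The profiles of 125 miRNA precursor families divided them into 3 sets. Set A held SS 12, CS 8 and CS 9, set B held SS 13, SS 14, MS 3, MS 4, MS 23 and MC 20, and set C held CS 10, MC 16 and MC 17. The median correlation of the precursor profiles was 0.715 over the 21 pairs of libraries from the same set and -0.648 over the 45 pairs from different sets. The sets were drawn from these profiles, so these medians describe the sets and do not test them. All 3 libraries of set C came from mice with cocaine, and 5 of the 6 libraries of set B came from mice without it. With the set in the model, cocaine was compared within sets only, through SS 12 in set A and MC 20 in set B. Set C holds no library without cocaine, so values from that model rest on few libraries. They do not separate cocaine from set. The labels name no batch, and what the sets stand for was not tested.

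Set C held reads that the deposited annotation assigned to miRNA families of plants. The 20 such families, a list drawn up after the counts were seen, together received 45703 counts in CS 10, 47554 in MC 17 and 51223 in MC 16. In the other 9 libraries they received between 29 and 726, the highest being SS 12. Most of these families were among the precursor families that gave the sets, so their counts describe set C and are no separate support for it. The let-7 precursor family divided the libraries in another way. It received 88797 to 103510 counts in MS 3, MS 23 and SS 13 and 2971 to 13592 in the other 9, whereas the mature let-7 strands of all 12 libraries received 760387 counts or more.

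**Figure D1:**
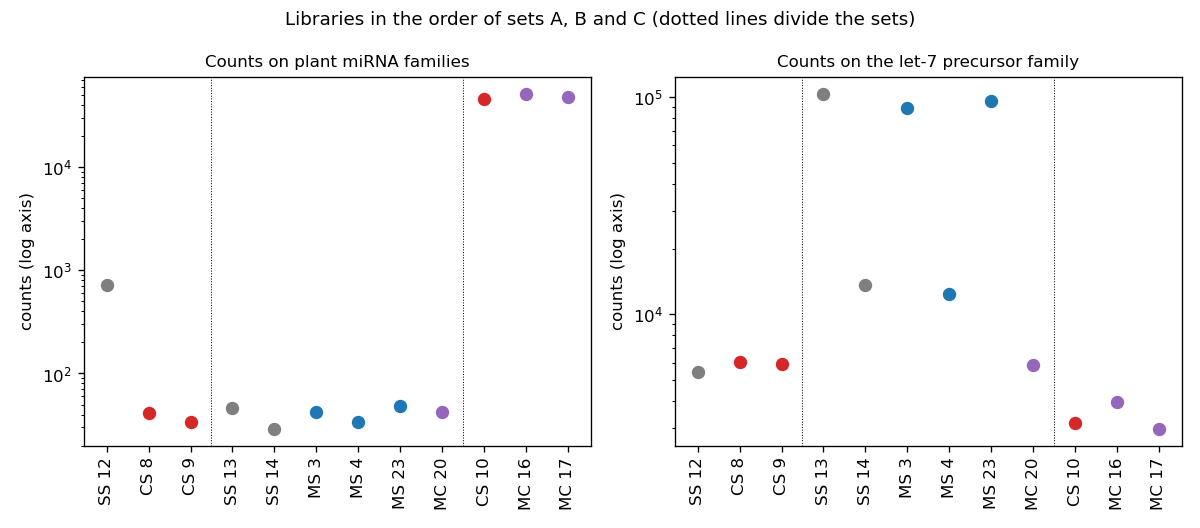
Counts of each library, on a log axis, on the 20 plant miRNA families (left) and on the let-7 precursor family (right), with the libraries ordered by set and coloured by group. The 3 libraries of set C lie at 45703 counts or more on the plant families, and MS 3, MS 23 and SS 13 lie at 88797 or more on the let-7 precursor family.

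For the mature miRNAs, the sets were less distinct by correlation. Over the 346 miRNAs with a mean of at least 10 counts per 1000000 (CPM), the median correlation of the profiles was 0.0079 within a set and -0.135 between sets. It was -0.136 for the 30 pairs with the same cocaine treatment and -0.0866 for the 36 pairs that differed in it, and the nearest other library was of the same set for 9 of the 12 libraries and had the same cocaine treatment for 6. MC 16 stood apart from all others. Its let-7c-5p level was 171899 normalised CPM against 22840 to 46289 in the other 11 libraries, and its miRNA levels relative to the mean of the libraries increased with GC content (r = 0.567 across miRNAs, against -0.303 to 0.0297 in the others). Levels in CPM are given after scaling by TMM factors, which correct for composition, and the factor of MC 16 was 0.67.

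The libraries with cocaine were smaller, with 8.67 ± 1.15 M counts (1 M is 1000000, SD, n = 6, range 7.77 to 10.9) against 10.1 ± 1.03 M (SD, n = 6, range 8.23 to 11.1). The difference of -1.45 M had p = 0.065 in an exact permutation test, two-sided, with cocaine permuted within each methionine treatment, where the smallest p that the 400 arrangements allow is 0.005. With MC 20, the largest library with cocaine, left out, the difference was -1.96 M (p = 0.015, exact permutation test), and with SS 12, the smallest without it, left out, it was -1.84 M (p = 0.020, exact permutation test). Both libraries lay against the direction of the difference. With each library left out in turn, it was -1.96 to -1.13 M, with p from 0.015 to 0.13 (exact permutation test).

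Most counts were on mature miRNAs in both treatments. Of the 15 Types of the annotation, 0 had an adjusted p of at most 0.05 (exact permutation test, Benjamini-Hochberg over the 15), and 3 had an unadjusted p under 0.05. Mature miRNAs held 60.9% ± 3.31 of the counts with cocaine and 64.3% ± 2.87 without it (SD, n = 6 each, adjusted p = 0.138, exact permutation test), and the ranges, 56.0% to 65.8% and 59.5% to 67.9%, overlapped. Precursors held 12.0% ± 1.63 and 13.4% ± 1.94 (adjusted p = 0.138, exact permutation test). Neither class therefore differed beyond the spread between libraries after adjustment.

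Sequences from repeats held the share that differed most clearly. They made up 5.37% ± 1.14 of the counts with cocaine and 3.77% ± 0.502 without it (SD, n = 6 each), with unadjusted p = 0.010 and adjusted p = 0.113 (exact permutation test). The values were 4.46%, 3.56% and 3.19% in SS, 5.26%, 5.71% and 7.06% in CS, 4.13%, 3.28% and 3.97% in MS, and 5.94%, 4.20% and 4.04% in MC, each in the order of the replicates. The CS libraries were all above the SS libraries, and the MC and MS libraries overlapped. The small nuclear RNAs (snRNAs), parts of the spliceosome, held 0.0128% with cocaine and 0.00902% without it (unadjusted p = 0.015, adjusted p = 0.113, exact permutation test). Introns held 4.85% ± 0.465 and 4.15% ± 0.401 (unadjusted p = 0.045, adjusted p = 0.138, exact permutation test).

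piRNAs held 0.509% ± 0.171 of the counts with cocaine and 0.370% ± 0.0565 without it (adjusted p = 0.204, exact permutation test), and rRNA held 0.180% ± 0.0855 and 0.0823% ± 0.0391 (adjusted p = 0.138, exact permutation test). For rRNA, set C lay at 0.202% to 0.315%, above all other libraries. Exonic sequences held 11.1% ± 2.46 with cocaine and 9.08% ± 1.505 without it (adjusted p = 0.225, exact permutation test), and MC 16 alone was at 16.1%. The intergenic share was 4.25% ± 1.17 and 4.19% ± 0.902 (adjusted p = 0.900, exact permutation test).

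**Figure D2:**
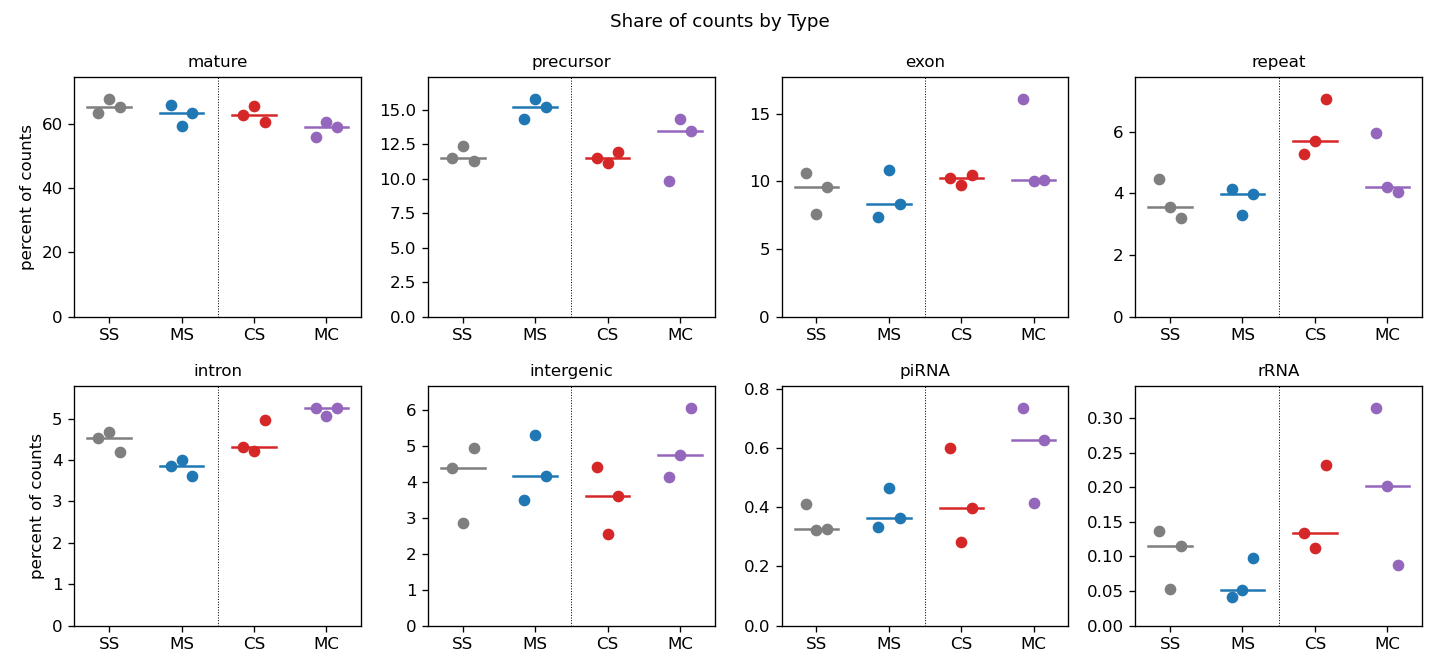
Share of the counts of each library, in percent, on 8 Types of small RNA, with 3 libraries in each of the groups SS, MS, CS and MC. Points are libraries, horizontal lines are group medians, and the dotted line divides the groups without cocaine (left) from those with it (right). The repeat share of the 3 CS libraries lies above that of the 6 libraries without cocaine, and over all 6 libraries with and 6 without cocaine each of the 8 shares overlaps.

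No miRNA passed the test for the main effect of cocaine. Of 1422 miRNAs listed, 780 had enough counts to be tested, and 0 (0%) had an adjusted p of at most 0.05 in the quasi-likelihood test of edgeR (Benjamini-Hochberg adjustment over the 780), where the smallest adjusted p was 0.916. At an unadjusted p under 0.05 there were 23 (2.95%), of which 13 (1.67%) were higher and 10 (1.28%) lower with cocaine. DESeq2 also called 0, with 39 at an unadjusted p under 0.05. The median log2 fold change over the 780 was 0.05, and 448 were above 0 and 332 below it.

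The precision of these values was moderate. The median absolute log2 fold change was 0.24 and the median standard error (SE) was 0.35, so the median difference was smaller than the median error. For 383 of the 780 miRNAs (49.1%), the 95% interval of the log2 fold change lay between -1 and 1. Among the 346 with a mean of at least 10 CPM the number was 245 (70.8%), and among the 68 with at least 1000 CPM it was 58 (85.3%). In that last group only miR-124-3p differed by 2-fold or more. Differences of more than 2-fold thus lay outside most intervals of the abundant miRNAs, and for many of the scarcer ones they were not detectable with these libraries.

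The neuronal miR-124-3p, which promotes neuronal differentiation, was among the most abundant miRNAs and varied widely between libraries. It was at 182484, 213413 and 72719 normalised CPM in SS 12, 13 and 14, at 164309, 29913 and 173689 in MS 3, 4 and 23, at 23764, 142843 and 163859 in CS 8, 9 and 10, and at 68683, 33040 and 28216 in MC 16, 17 and 20. The 4 lowest values, 23764 to 33040, came from 1 library without cocaine and 3 with it, and the treatments overlapped. Its log2 fold change was -1.003 (95% interval -2.16 to 0.16, adjusted p = 0.916, edgeR).

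Of the other 4 of the 5 most abundant miRNAs, 3 were lower and 1 was higher in the fit, none past the test. For miR-9-5p, which acts in neural progenitors and neurons, the log2 fold change was -0.14 (SE 0.18), and for miR-26a-5p it was -0.23 (SE 0.14). For miR-99a-5p it was -0.30 (SE 0.15). MC 16 had the lowest level of the 12 libraries for each of these 3, at 22805, 25162 and 13246 normalised CPM. For let-7c-5p, of the let-7 family that marks differentiated cells, the log2 fold change was 0.53 (SE 0.49), with MC 16 highest. The adjusted p of each of these 4 was 0.916 or above (edgeR).

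Among the miRNAs with the smallest p-values, miR-342-3p and miR-188-5p were the only ones of the 780 whose treatments did not overlap. They make 0.256% of the miRNAs tested, both were lower with cocaine, and 0 miRNAs were higher without overlap. The level of miR-342-3p, which is processed from an intron of Evl, was 1137, 1430 and 1278 normalised CPM in SS, 1394, 1180 and 1167 in MS, 1030, 887.5 and 898.7 in CS, and 1070, 954.7 and 1083 in MC. The lowest library without cocaine was thus at 1137 and the highest with it at 1083. The log2 fold change was -0.36 (SE 0.13, 95% interval -0.65 to -0.07), with unadjusted p = 0.018 and adjusted p = 0.916 (edgeR). Without TMM factors it was -0.26 (unadjusted p = 0.222, edgeR).

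The level of miR-188-5p was low, at 4.70, 4.34 and 4.48 normalised CPM in SS, 6.24, 4.20 and 7.40 in MS, 2.71, 3.86 and 4.03 in CS, and 2.29, 3.64 and 1.87 in MC. The gap between the treatments was small, from 4.03 to 4.20 normalised CPM, and the log2 fold change was -0.77 (SE 0.26), with unadjusted p = 0.011 and adjusted p = 0.916 (edgeR). With the library set added to the model, it was -1.06 (SE 0.42) for miR-188-5p and -0.25 (SE 0.20) for miR-342-3p.

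For miR-674-3p, the levels were 2.68 to 4.20 normalised CPM with cocaine (median 3.22) and 2.82 to 7.47 without it (median 5.85). Only SS 12, at 2.82, lay within the range of the libraries with cocaine. The log2 fold change of -0.78 (SE 0.24, unadjusted p = 0.0071, adjusted p = 0.916, edgeR) was -0.36 (SE 0.34) with the library set in the model.

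The 2 arms of miR-122, a miRNA of hepatocytes, were also lower with cocaine, and their values rested largely on 1 library. MS 3 was at 2437 normalised CPM for miR-122-5p, and the other libraries without cocaine were at 12.3 to 145.6. With cocaine, the levels were 8.45 to 207.5, with a median of 10.9, so the treatments overlapped, and the log2 fold change was -2.62 (SE 0.90, unadjusted p = 0.012, adjusted p = 0.916, edgeR) and, without MS 3, -1.26 (unadjusted p = 0.126, edgeR). For miR-122-3p, MS 3 was at 32.7 normalised CPM and the other 11 libraries were at 2.27 or less, and the log2 fold change was -3.21 (SE 0.88, unadjusted p = 0.0032, adjusted p = 0.916, edgeR) and, without MS 3, -1.71. Liver RNA as a source of these reads was not tested.

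Of the miRNAs that were higher with cocaine, miR-329-5p had the smallest p. It is encoded in the imprinted Dlk1-Dio3 cluster, in which the miRNA genes are expressed from the maternal allele. The level was 16.8, 21.0 and 20.1 normalised CPM in SS and 27.5, 26.0 and 28.4 in CS, and it was 25.7, 27.3 and 30.9 in MS and 71.9, 30.2 and 45.5 in MC. The CS libraries were all above the SS libraries, and the MC and MS libraries overlapped. The log2 fold change was 0.66 (SE 0.21, 95% interval 0.20 to 1.12, unadjusted p = 0.0086, adjusted p = 0.916, edgeR), and it was 0.66 (SE 0.32) with the library set in the model. The other arm, miR-329-3p, had a log2 fold change of -0.10 (SE 0.30).

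A further 3 of the miRNAs in this direction were scarce. The log2 fold changes were 1.14 (SE 0.37) for miR-7052-3p, 1.13 (SE 0.43) for miR-598-5p and 0.78 (SE 0.30) for miR-8114, and no library of either treatment exceeded 5.15 normalised CPM for any of them. For miR-200c-3p, a miRNA of epithelia, the levels were 6.06 to 106.9 normalised CPM with cocaine (median 12.2) and 0.844 to 42.5 without it (median 3.33). The highest values were in MC 20, CS 10 and MS 3, so high libraries were found in both treatments. Its log2 fold change was 2.40 (SE 0.97, unadjusted p = 0.029, adjusted p = 0.916, edgeR) and, without MC 20, 1.92 (unadjusted p = 0.173, edgeR).

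**Figure D3:**
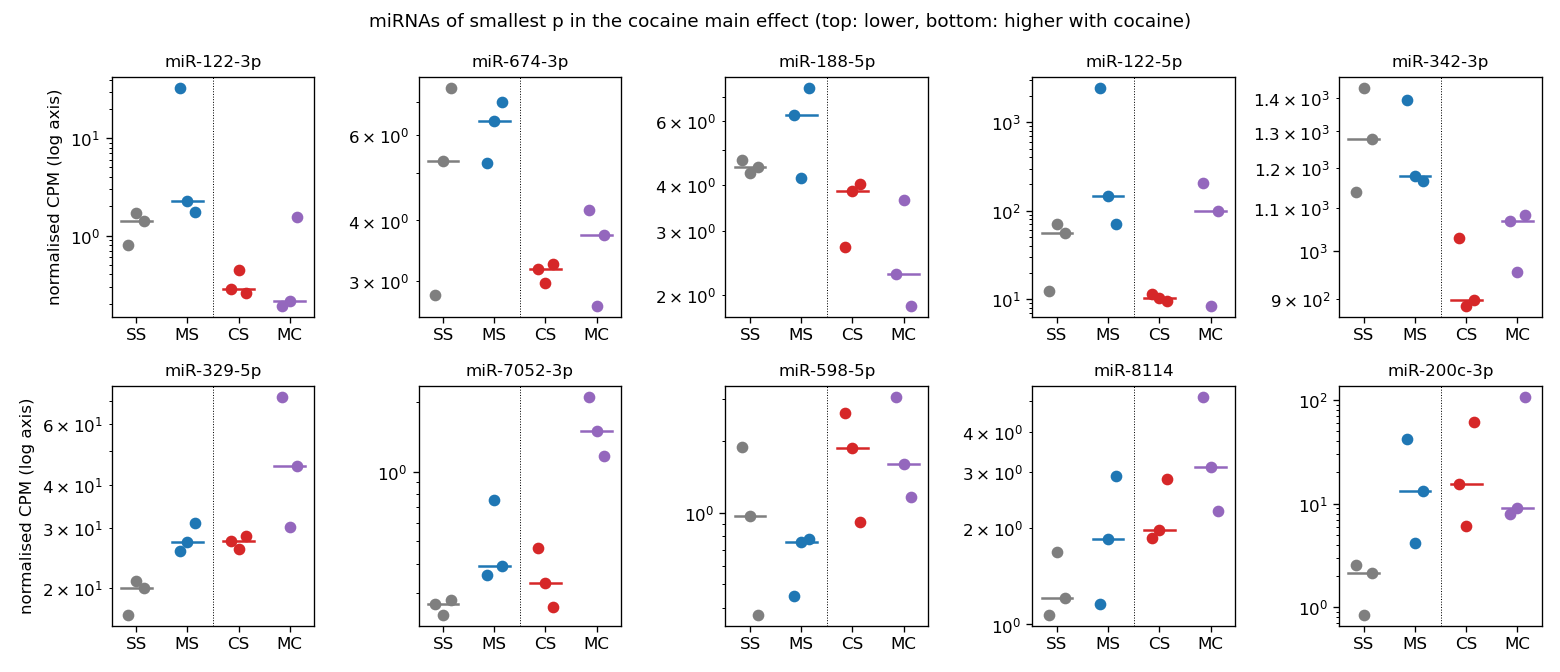
Normalised CPM, on a log axis, of the 5 miRNAs of smallest p in each direction, with 3 libraries in each of the groups SS, MS, CS and MC. Points are libraries, horizontal lines are group medians, and the dotted line divides the groups without cocaine (left) from those with it (right). The treatments do not overlap for miR-342-3p and miR-188-5p and overlap for the other 8, and MS 3 is the single high point for both arms of miR-122.

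When the comparison was made within each methionine treatment, more miRNAs did not overlap, since each group then had 3 libraries. In both CS against SS and MC against MS, 1 miRNA (0.128%) was higher and 5 (0.641%) were lower without overlap. The higher one was miR-29b-1-5p, at 19.3, 15.6 and 17.8 normalised CPM in SS, 22.7, 21.9 and 25.0 in CS, 13.9, 13.5 and 12.3 in MS and 108.0, 16.37 and 14.96 in MC. The high value was that of MC 16, and with the library set in the model the log2 fold change of 1.11 (SE 0.48) became 0.07 (SE 0.60). The lower ones were miR-122-3p, miR-188-5p and miR-342-3p, described above, and miR-369-5p (log2 fold change -0.45, SE 0.21) and miR-323-3p (-0.28, SE 0.15), both of the Dlk1-Dio3 cluster. These last 2 and miR-29b-1-5p are named after their values were seen.

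The CS against SS and the MC against MS comparisons have no library in common, and their fold changes did not run in parallel. Across the 780 miRNAs, Pearson's r between the 2 sets of log2 fold changes was 0.024 and Spearman's rho was -0.066, given as a description because miRNAs of the same libraries are not independent. With each library left out in turn, r was -0.067 to 0.118. The sign was the same for 367 miRNAs (47.1%), and for 171 of the 346 miRNAs with a mean of at least 10 CPM (49.4%). At an unadjusted p under 0.05 there were 22 miRNAs in CS against SS and 65 in MC against MS, and 0 were among both in the same direction. The test of the interaction, that is, of a difference between the 2 comparisons, called 0 miRNAs, with 34 at an unadjusted p under 0.05 (edgeR), and DESeq2 called 0, with 43.

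**Figure D4:**
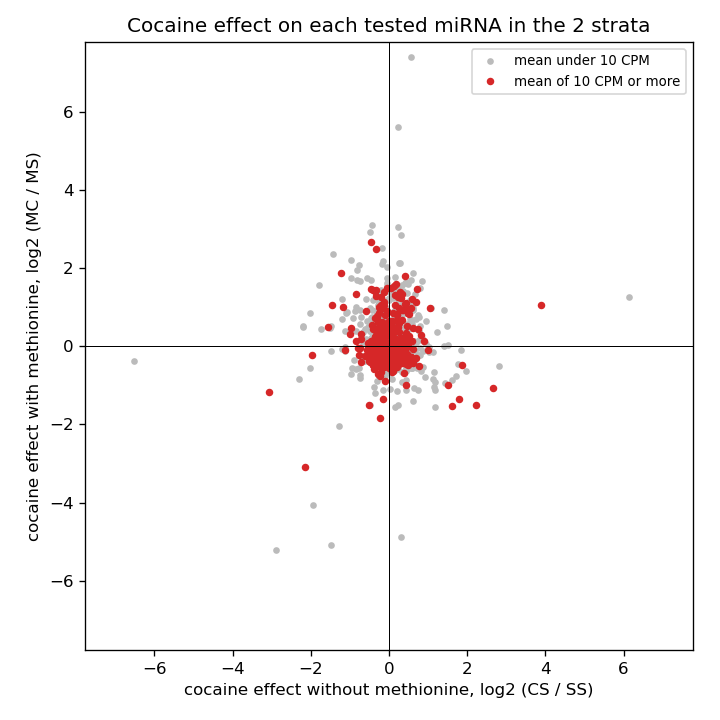
Log2 fold change of each of the 780 tested miRNAs in MC against MS (vertical axis) and in CS against SS (horizontal axis). Red points are the 346 miRNAs with a mean of at least 10 CPM and grey points are the others, and the points do not follow a line (r = 0.024).

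The relation between fold change and base composition turned on MC 16. Of the 746 mature miRNAs tested, 636 (85.3%) had a sequence in the reference, and across these the log2 fold change correlated with GC content at r = 0.212. In CS against SS, r was -0.148, and in MC against MS it was 0.363. Without MC 16 the main effect gave r = -0.145. The 2 arms of the same hairpin, 220 pairs, had log2 fold changes that correlated at r = 0.227, and 117 pairs (53.2%) had the same sign. Where both arms had a mean of at least 10 CPM, 78 pairs, r was 0.0177.

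The lists of miRNAs with known roles showed no call in any of 20 lists, beside the 0% of all miRNAs tested. Of the 9 miRNAs that respond to neuronal activity, 5 were above 0 and 4 below it, and the median log2 fold change was 0.04, beside 0.05 over all 780. The strands with the same seed, miR-132-3p and miR-212-3p, had log2 fold changes of -0.49 (SE 0.38) and 0.04 (SE 0.16). The level of miR-132-3p was 252.5 to 638.3 normalised CPM with cocaine and 280.2 to 1362 without it, and SS 14 and CS 9 were the 2 highest libraries. The level of miR-212-3p was 1961 to 2741 with cocaine and 1863 to 2752 without it. For miR-134-5p, a regulator of dendritic spines, the log2 fold change was 0.63 (SE 0.31), and MC 16 was highest at 156.4 normalised CPM against 37.3 to 71.9 in the other libraries. For miR-138-5p, another miRNA of dendrites, it was 0.19 (SE 0.20).

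Of the 7 miRNAs that have been studied in models of cocaine, 3 were above 0 and 4 below it, with a median of -0.16. Besides miR-124-3p, miR-132-3p and miR-212-3p, the log2 fold changes were 0.16 (SE 0.25) for let-7d-5p, -0.16 (SE 0.17) for miR-181a-5p, -0.45 (SE 0.30) for miR-495-3p and 0.89 (SE 0.41) for miR-206-3p. The last was scarce, at 4.77 normalised CPM in MC 16 and at most 1.87 in the other 11 libraries. The 3 miRNAs that the study itself named had log2 fold changes of 0.03 (SE 0.88) for miR-224-5p, -0.19 (SE 0.22) for miR-340-3p and 0.04 (SE 0.21) for miR-330-5p. The study named them, by another test, as higher in CS than in SS and lower in MC than in CS. The main effect averages CS against SS with MC against MS, so it is no test of that pattern. For miR-224-5p, high levels of 7.27 to 12.2 normalised CPM were found in SS 12, CS 8 and CS 9, the 3 libraries of set A, and levels of 2.10 or less in the other 9.

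**Figure D5:**
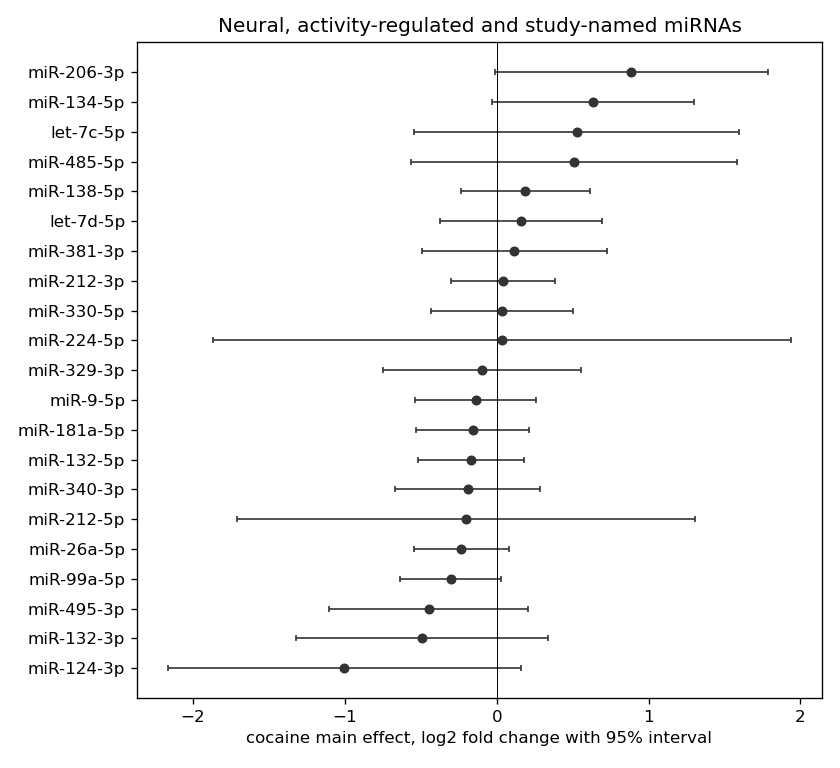
Main effect of cocaine, as log2 fold change, on the miRNAs that respond to neuronal activity, that have been studied in models of cocaine, that the study named, or that are the most abundant. Points are estimates over 6 libraries with and 6 without cocaine and bars are 95% intervals from edgeR. All intervals include 0, the closest to excluding it being that of miR-206-3p, from -0.01 to 1.79.

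Families and clusters gave medians close to that of all miRNAs. The let-7 family with miR-98 (9 members) had a median log2 fold change of 0.16, and its summed level was 81868 to 332684 normalised CPM with cocaine and 83240 to 134155 without it, the highest being MC 16. The medians were 0.10 for miR-29 (3 members), which represses collagen and other matrix mRNAs, 0.04 for miR-30 (5 members), -0.03 for miR-181 (4 members) and -0.05 for the miR-17-92 family (12 of 14 members tested), which promotes proliferation. In the Dlk1-Dio3 cluster, 91 of 98 members were tested, 50 were above 0 and 41 below it, and the median was 0.04. Of these 91, 2 were higher and 0 were lower at an unadjusted p under 0.05, beside 1.67% and 1.28% of all 780. In the Sfmbt2 cluster, expressed in placenta and stem cells, 32 of 62 members were tested, with a median of 0.01 and 1 lower at an unadjusted p under 0.05. Nothing is read from these counts.

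The markers of cell types had the ranges to be set beside these values. The summed level of the 14 neuronal miRNAs was 140170 to 288022 normalised CPM with cocaine and 135103 to 362789 without it, and 7 were above 0 and 7 below it. The 4 oligodendrocyte miRNAs summed to 676.8 to 1675 and 415.6 to 1633, the 6 of leukocytes and microglia to 825.6 to 2344 and 1696 to 2431, and the 2 endothelial ones to 4404 to 7360 and 6809 to 9143. In each list the ranges overlapped. The 5 miRNAs of red blood cells summed to 688.4 to 3085 and 1570 to 3901, and the 9 of choroid plexus and ependyma, of which 8 were tested, to 1073 to 2101 and 1690 to 2568. The 8 of epithelia and sensory cells summed to 105.5 to 1284 and 101.2 to 892.8, the 4 of hindbrain, of which 3 were tested, to 11.6 to 145.2 and 14.7 to 49.7, and the 4 of muscle, of which 3 were tested, to 31.0 to 63.5 and 31.6 to 73.7. No member of these lists was at 0 in all libraries, and the part of other cell types in the main effect was not tested.

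Single libraries were far from the rest for several markers. MC 20 was at 141.0 normalised CPM for miR-223-3p, a miRNA of myeloid cells, against 1.91 to 16.0 in the other 11 libraries. It was also at 134.8 for miR-10a-5p, encoded among the Hoxb genes, against 7.28 to 36.5. CS 8 and CS 9 were at 293.8 and 486.1 for miR-150-5p, a miRNA of lymphocytes, against 955 to 1934. The log2 fold changes of these 3 were 1.12 (SE 0.98), 0.77 (SE 0.76) and -0.36 (SE 0.38). For miR-219a-2-3p, a miRNA of oligodendrocytes, 4 libraries (MS 4, MS 23, SS 14 and MC 20) were at 27.5 to 55.1 and the other 8 at 466.3 to 1269, and all 4 belonged to set B. The log2 fold change was 0.88 (SE 0.94), and its other arm, miR-219a-5p, was at -0.10 (SE 0.39).

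No piRNA was called. Of 693 listed, 281 were tested and 0 (0%) passed an adjusted p of 0.05 (edgeR, smallest adjusted p = 0.213), and 19 (6.76%) had an unadjusted p under 0.05, of which 15 (5.34%) were higher and 4 (1.42%) lower with cocaine. With the library set in the model, 6 had an unadjusted p under 0.05. The median log2 fold change was 0.26, with 178 above 0 and 103 below it. Of the 281, 62 were known piRNAs and 219 were predicted ones. The sequences of the piRNAs are not printed here.

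The smallest p belonged to mmu_piR_000958, which received 32, 6 and 6 counts in SS, 35, 15 and 247 in CS, 10, 5 and 10 in MS, and 288, 227 and 46 in MC. The 3 highest libraries were CS 10, MC 16 and MC 17, which form set C. Its log2 fold change was 3.68 (SE 0.84, unadjusted p = 0.00076, adjusted p = 0.213, edgeR), and with the library set in the model it was 1.24 (SE 0.54). DESeq2 called this piRNA and no other. For mmu_piR_018323, the levels were 3.99 to 11.04 normalised CPM with cocaine (median 6.58) and 0.929 to 6.47 without it (median 1.86). SS 12, of set A, was the only library without cocaine above 2.23. Its log2 fold change was 1.58 (SE 0.47, adjusted p = 0.518, edgeR) and, with the library set in the model, 0.64 (SE 0.42).

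Among piRNAs with the smallest p that were lower with cocaine, mmu_piR_019200 was at 1.41 to 4.14 normalised CPM with cocaine and 1.102 to 10.2 without it, and the log2 fold change was -1.31 (SE 0.47, adjusted p = 0.518, edgeR). Several predicted piRNAs were listed in 1 treatment only, but no predicted piRNA had a count from 1 to 9 in any library, whereas known piRNAs had counts down to 1. A 0 of a predicted piRNA may thus stand for up to 9 reads. The predicted novel_pir568 had 87, 11 and 22 counts in MC and was listed at 0 elsewhere, and novel_pir21 and novel_pir394 were listed at 0 in all 6 libraries with cocaine and in 3 of the 6 without it. Of the 15 that were higher at an unadjusted p under 0.05, 8 were listed only with cocaine, and 6 of these 8 only in set C. A piRNA listed in 1 treatment only passed the filter on low counts through that treatment alone. Its direction was thus fixed by the filter and is a description. In normalised CPM, a single piRNA (0.356%) did not overlap between the treatments. This was mmu_piR_002643, with 2 to 13 counts in the libraries with cocaine and 0 to 2 in those without it, so its counts met at 2. It passed the filter on low counts only through libraries with cocaine, so this lack of overlap is a description of a few counts, and it was named after its values were seen. In both CS against SS and MC against MS, 2 piRNAs (0.712%) were higher without overlap, this one and mmu_piR_000414 (log2 fold change 1.92, SE 1.13), and 0 were lower. For mmu_piR_000414, MC received 7, 2 and 3 counts and MS 1, 0 and 2, so its counts also met at 2.

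The remaining named small RNAs had many small p-values and no call. Of 1019 listed, 332 were tested and 0 (0%) were called (edgeR, smallest adjusted p = 0.0668), and 88 (26.5%) had an unadjusted p under 0.05, of which 58 (17.5%) were higher and 30 (9.04%) lower with cocaine. DESeq2 called 49. With the library set in the model, 1 was called and 16 had an unadjusted p under 0.05. Without the 3 libraries of set C, 0 of 282 were called and 18 had an unadjusted p under 0.05. In this class, cocaine and library set cannot be told apart by these libraries where a feature is found in set C alone.

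The plant families made up 18 of the 58 (31.0%) that were higher with cocaine. Of the 20, 19 were tested, and all 19 were above 0 in the main effect. Most of the 19 passed the filter on low counts only through set C. All libraries of set C had cocaine, so these counts and their direction are a description. Of the families with the smallest p, MIR397 (RF00704) received 705 counts in CS 10, 1030 in MC 16 and 954 in MC 17, 1 count in MS 23 and 0 in the other 8 libraries. MIR403 (RF00842) received 131, 171 and 153 counts in set C, 1 in SS 14 and 0 elsewhere. Since the sets were drawn from precursor families, these among them, the fit with the library set is no separate test of them. The Type of short interfering RNAs, for which the lowest count above 0 was also 10, was listed in set C only. The insect family mir-276 (RF00637) was at 2.39 to 10.1 normalised CPM in set C and at most 0.216 elsewhere.

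Of the features that were lower with cocaine, the let-7 precursor family (RF00027) had the smallest p. It was at 605.6, 11867 and 1212 normalised CPM in SS, 571.1, 638.1 and 427.3 in CS, 8550, 1184 and 10655 in MS, and 498.8, 429.0 and 473.7 in MC. SS 12 lay within the range of the libraries with cocaine and the other 5 without cocaine lay above it. Its log2 fold change was -3.46 (SE 0.74, unadjusted p = 0.00061, adjusted p = 0.0668, edgeR) and, with the library set in the model, -2.01 (SE 1.44). The mature let-7 strands did not follow it, since their list had a median log2 fold change of 0.16. The snoRNA SNORA35 (RF00566) was at 0.111 to 5.10 normalised CPM without cocaine and at most 0.324 with it (log2 fold change -3.93, SE 0.94, adjusted p = 0.0668, edgeR). It passed the filter on low counts only through libraries without cocaine, so this difference is a description. SS 12, of set A, was its lowest library without cocaine, at 0.111. A small RNA of Pseudomonas bacteria (RF01677) was at 0.111 to 3.61 normalised CPM without cocaine and 0.126 to 0.810 with it (log2 fold change -2.66, SE 0.63, adjusted p = 0.0668, edgeR). Its lowest library without cocaine was SS 12, of set A, and its highest with cocaine was MC 20, of set B.

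By Type, 22 of 125 precursor families tested were higher and 16 lower at an unadjusted p under 0.05, and 19 of 126 snoRNAs were higher and 8 lower, beside 17.5% and 9.04% of all 332. Of the 22 higher precursor families, 18 were plant families. The median log2 fold changes were -0.08 for precursor families and 0.19 for snoRNAs. With the library set in the model they were -0.25 and 0.16, and that fit is no separate test of the precursor families that gave the sets. Of 10 rRNA families, 8 were higher and 0 lower, with a median log2 fold change of 1.38. The median was 0.07 with the library set in the model, where cocaine was compared only through SS 12 and MC 20. The bacterial small and large subunit rRNA families together were at 197 to 254 CPM of the library total in set C, 137 to 179 in set A and 35.9 to 80.5 in set B. Their level was thus ordered by set. SS 12 was the highest of set A, and MC 20, the library of set B with cocaine, was the highest of that set. The medians were 0.47 for 7 snRNAs tested, 0.46 for 2 tRNA features and 0.25 for 49 other families, in which 6 were higher and 4 lower.

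Only 2 of the 332 (0.602%) did not overlap between the treatments, and both were higher with cocaine and are named after their values were seen. The bacterial transfer-messenger RNA family RF01850, which rescues stalled ribosomes in betaproteobacteria, was at 36.2, 25.2 and 15.8 normalised CPM in SS, 15.8, 24.6 and 29.4 in MS, 48.8, 45.4 and 52.6 in CS, and 71.5, 52.3 and 57.7 in MC. The lowest library with cocaine, at 45.4, was thus above the highest without it, at 36.2. The log2 fold change was 1.15 (SE 0.30, 95% interval 0.49 to 1.82, unadjusted p = 0.0027, adjusted p = 0.0668, edgeR), and with the library set in the model it was 0.88 (SE 0.35, unadjusted p = 0.027, adjusted p = 0.651, edgeR). The snoRNA R16 (RF00296) received 15, 25 and 23 counts in CS 10, MC 16 and MC 17, 1 count in each of the other 3 libraries with cocaine and 0 in all 6 without it. It therefore passed the filter on low counts through set C alone, and its lack of overlap rests on single counts. In both CS against SS and MC against MS, 3 (0.904%) were higher without overlap, these 2 and RF00637, and 4 (1.2%) were lower, RF00431, RF00890, RF00784 and RF00076. The last had log2 fold changes of -0.53 (SE 0.19) and, with the library set in the model, -0.16 (SE 0.25). RF00637 passed the filter on low counts through set C alone. Outside set C its lack of overlap rests on a few counts. CS 8 was at 0.190 normalised CPM against 0.178 in SS 14, and MC 20 at 0.162 against 0.111 in MS 23.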

How the data were processed

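The data are 12 tables of small RNAs from mouse PFC, 1 for each library, grouped by the labels. According to the study's methods, the authors filtered reads by quality, adapter and length, mapped them with AASRA and compared those left over with piRBase. The submitters' processing notes also name Bowtie and mm10. The deposited values used here are raw read counts, which sum to 7.77 to 11.1 M for a library (1 M is 1000000). The TPM that the authors deposited beside them is each count over that sum, scaled to 1000000, and was not used.

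Mature and predicted miRNAs, piRNAs and all remaining Types were tested as 3 classes by the quasi-likelihood F-test of edgeR 4.0.16 under R 4.3.3 (model of methionine and cocaine, 9 residual degrees of freedom, TMM factors within the class, library size set to the total count). A feature entered the test with 5 counts or more in 3 or more of the libraries, Benjamini-Hochberg adjustment covered the class, and a call needed an adjusted p of at most 0.05. Counts of zero give no fold, and p-values of single features rest on 6 libraries against 6. Shares and totals were compared with exact permutation tests in scipy 1.17.1 (Python 3.11.15, pandas 2.3.3, numpy 2.4.6), and figures were drawn with matplotlib 3.10.9. Over the 66 pairs of libraries the smallest chi-square per degree of freedom of the counts of 346 miRNAs was 234.6, so no pair of libraries agreed within sampling noise. The steps were also tested on simulated data.

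The members, lists, alternatives and library sets were chosen with earlier results of these data known, so no list is independent support. Named were the 5 miRNAs of smallest p in each direction, the 5 most abundant, all members of the lists of neuronal activity, cocaine models and the study, the 2 to 4 most abundant members of the other lists, and the 3 features of smallest p in each direction in the other classes. Sequences were to be shown for the miRNAs of smallest p with at least 100 counts in 6 libraries. Alternatives were DESeq2 1.42.0, other scalings, filters, models and call rules, the library set as covariate, permutation without strata, and each library left out in turn. Leaving out set C, and adjusting without the plant families, were chosen after seeing the data.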

Additional observations from a re-analysis of the deposited data

Results flagged for a closer look

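In groups of 6 libraries, the highest or lowest library was taken as far from the others where its gap to the nearest exceeded Dixon's 95% critical value. Of 84 groups examined, 16 had such a library, and chance alone gives about 4.2. Their causes were not tested.

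Several of the 16 were MC 16 among the libraries with cocaine. It was at 171899 normalised CPM for let-7c-5p, and it was low at 22805 for miR-9-5p, 25162 for miR-26a-5p and 13246 for miR-99a-5p. Its share of exonic sequences was 16.1%.

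Others were libraries of the opposite depth or level. MC 20 had the largest total with cocaine, 10.9 M, and SS 12 the smallest without it, 8.23 M. MC 20 was also highest with cocaine for miR-122-3p, at 1.56 normalised CPM, and for the Pseudomonas small RNA RF01677, at 0.810. SS 12 was lowest without cocaine for miR-674-3p, at 2.82, and highest for mmu_piR_000958, at 3.63.

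The remaining ones were libraries without cocaine. MS 3 was at 32.7 normalised CPM for miR-122-3p, MS 4 at 0.756 for miR-7052-3p, and MS 23 held 0.0962% of its counts on predicted miRNAs. MS 23 was at 0.111 normalised CPM for the plant family RF00704 and SS 14 at 0.0892 for RF00842, where the other 5 were at 0, so that each value is 1 count.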

How the results depend on the processing

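The number of miRNAs called was 0 under each alternative run, with 14 to 53 at an unadjusted p under 0.05. Without TMM factors the median log2 fold change of the miRNAs was 0.15 and 68.3% were above 0, against 0.05 and 57.4%, and with the library set as covariate 49.6% were. For piRNAs, DESeq2 called 1 and the test without a filter 3, and leaving out 1 library gave 0 to 2, the 2 (mmu_piR_018323 and mmu_piR_000958) without SS 12. For the remaining small RNAs, DESeq2 called 49, no filter 85, no methionine term 14 and the library set as covariate 1 (RF00640, a plant family, lower). Leaving out 1 library gave 0 to 55: 30 without CS 8, 26 without CS 9, 38 without SS 12, 55 without MC 20 and 0 without any of the other 8. The difference in total count was -1.96 to -1.13 M with 1 library left out. Calls on shares of Types stayed at 0, with 2 to 6 unadjusted, and calls on the interaction at 0. Of 484 recomputed fold changes of 22 named features, 436 kept side and direction, 46 passed the threshold, and 2 reversed with the library set as covariate: RF00704 at -1.01 and RF00842 at -0.83, whose fitted values of 10.98 and 8.29 rest on groups nearly at 0 and are no bounds. The cause of these changes was not tested. No paired analysis was possible because the groups share no replicate number. For miRNAs under about 10 CPM, 2-fold differences were mostly not detectable, and the parts of depth and of the spread between libraries were not tested.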
